A study of Homo sapiens with 6 samples.

Results

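The 10 genes described here were the BH3-only killers HRK, BBC3, PMAIP1, BCL2L11, BMF, BIK, BAD and BID and the survival genes MCL1 and BCL2L1, chosen by symbol from 19470 gene symbols in the count table. They were measured by RNA sequencing in A549, a human lung adenocarcinoma line of wild-type genotype per the labels, in 3 libraries of cells activated by medium conditioned by osteoclasts and 3 libraries of cells in which dormancy had been induced. The study asked which genes differed as dormant cells became active. The labels do not say how dormancy was induced, how long each state lasted or which base medium each group had, so state and medium cannot be told apart. They also do not say whether replicate libraries were grown separately, so each p-value reflects no more than library-to-library spread and that spread may be technical. In bulk samples such as these, fewer cells expressing a gene and less RNA per cell cannot be told apart.

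The BCL2 family decides whether the outer mitochondrial membrane is breached in apoptosis. BAX and BAK1 form the pores, survival proteins such as MCL1 and BCL-XL, the long product of BCL2L1, hold them in check, and BH3-only proteins respond to stress by binding the survival proteins or by switching on the pore formers. In lung adenocarcinoma, BCL-XL and MCL1 are known as the main survival proteins of the family.

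Total counts were between 34478795 and 36397989 per activated library and between 34128471 and 36667725 per dormant library. The Pearson correlation of log2 CPM across genes was 0.989 to 0.991 among activated libraries, 0.992 among dormant libraries and 0.911 to 0.915 between groups. KRT8, a keratin of simple epithelia, averaged 3460 CPM (counts scaled to library size with TMM factors) in activated and 1672 CPM in dormant cells, and CDKN2A, a gene deleted in A549, had 0 counts in activated and 1 in dormant libraries. EPCAM, another epithelial marker, was low, at 0.611 CPM in activated and 1.28 CPM in dormant cells. Of 10 listed osteoclast markers, DCSTAMP, OCSTAMP and CALCR had 0 counts in all libraries, and of the 7 tested 2 were higher and 4 lower in activated cells. ITGB3 averaged 265 CPM in activated and 5.88 CPM in dormant cells and MMP9 0.770 CPM in activated and 0.143 CPM in dormant cells, while ATP6V0D2 had 7 activated and 2164 dormant counts, ACP5 had 5 activated and 63 dormant counts, and CTSK and NFATC1 fell 1.32-fold and 1.81-fold. Only the activated libraries carried MMP9 over the minimum count for testing, so it could only be seen to rise. For ATP6V0D2 and ACP5 only the dormant libraries did, so these genes could only be seen to fall. The summed level of the osteoclast list was 246 to 327 CPM in activated and 50.5 to 52.6 CPM in dormant libraries. Without ITGB3 it was 16.2 to 17.0 CPM in activated and 44.7 to 46.1 CPM in dormant libraries. Of 10 listed myeloid markers, TYROBP and AIF1 had 0 counts in all libraries, and PTPRC had 5 activated counts and 1 dormant count. LYZ had 11 activated and 20 dormant counts and FCER1G had 11 in each group, and neither was tested. All 5 tested genes were higher in activated cells. Of these, LAPTM5 and CSF1R passed the minimum count only through the activated libraries, so they could only be seen to rise. Summed counts were 940 in activated and 124 in dormant libraries for CD14, 214 in activated and 25 in dormant libraries for LAPTM5, and 79 in activated and 10 in dormant libraries for CSF1R, while ITGAM and CD68 rose 1.73-fold and 1.13-fold. The summed level was 166 to 174 CPM in activated and 136 to 148 CPM in dormant libraries, and without CD68, which held most of it, 17.5 to 19.2 CPM in activated and 4.11 to 6.40 CPM in dormant libraries. The part of other cells in the results was not tested.

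The BH3-only genes moved in both directions and over a wide range, while the survival genes moved little. In activated cells, 6 of the 8 BH3-only genes fell, from 96.2-fold for HRK to 1.69-fold for BCL2L11, and BAD and BID rose 2.13-fold and 1.252-fold. MCL1 and BCL2L1 rose 1.12-fold and 1.17-fold. Across 13336 genes tested with edgeR's quasi-likelihood method, 73.7% had an adjusted p under 0.05, and all 10 genes were among them. Of all tested genes 37.2% were past the threshold and lower (4962 genes), and 36.5% were past it and higher (4868 genes). With libraries scaled by total counts the same split was 5998 lower and 3941 higher. At least a 2-fold fall was seen for 5 members, against 11.0% of tested genes, and at least a 2-fold rise for BAD alone, against 11.2%. Activated and dormant libraries did not overlap in CPM for 9 members, as for 76.5% of tested genes, and BIK was the exception. The median log2 fold change was -1.24 for the BH3-only genes, 0.19 for the 2 survival genes and -0.02 for all tested genes. The dormant libraries alone carried HRK and BIK over the minimum count for testing, so these genes could only be seen to fall.

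**Figure D1:**
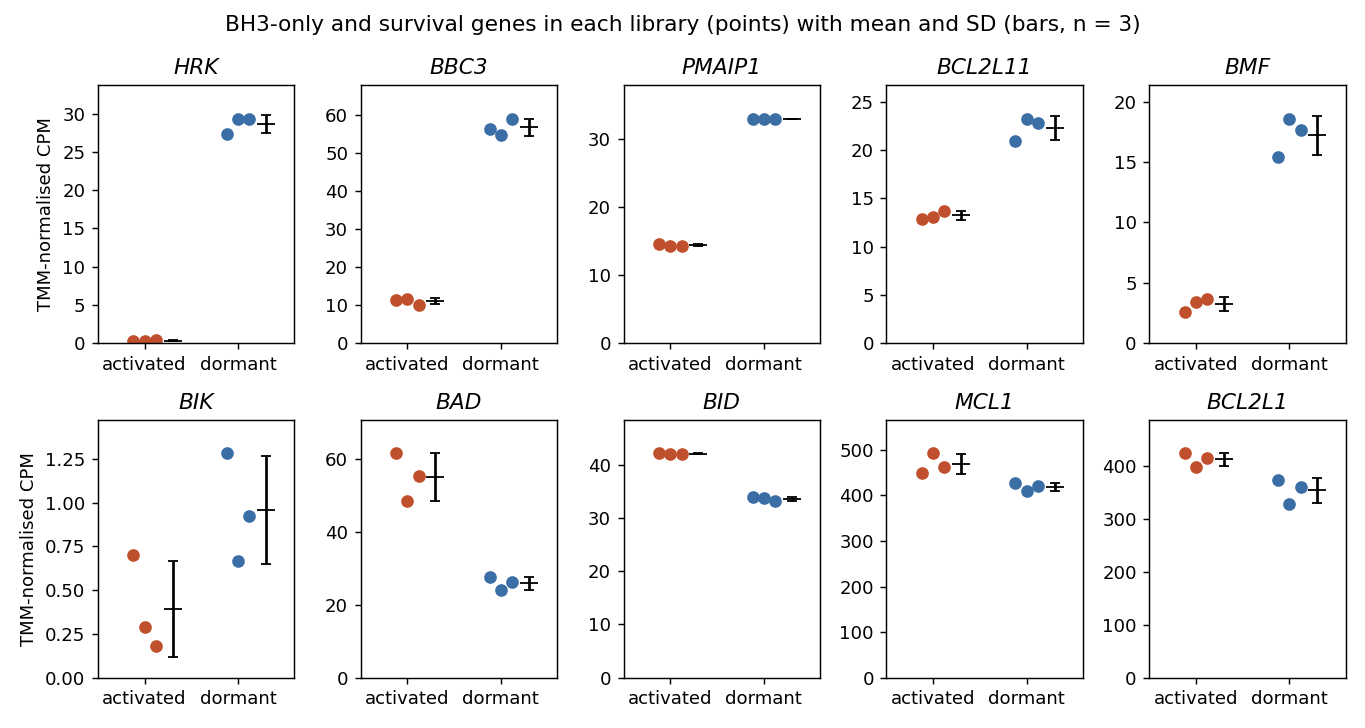
TMM-normalised CPM (vertical axes, each from 0) of the 10 genes in the 3 activated and 3 dormant libraries, 1 point per library, with mean and SD as bars. Activated points lie below all dormant points for HRK, BBC3, PMAIP1, BCL2L11 and BMF and above them for BAD, BID, MCL1 and BCL2L1, and for BIK they overlap.

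**Figure D2:**
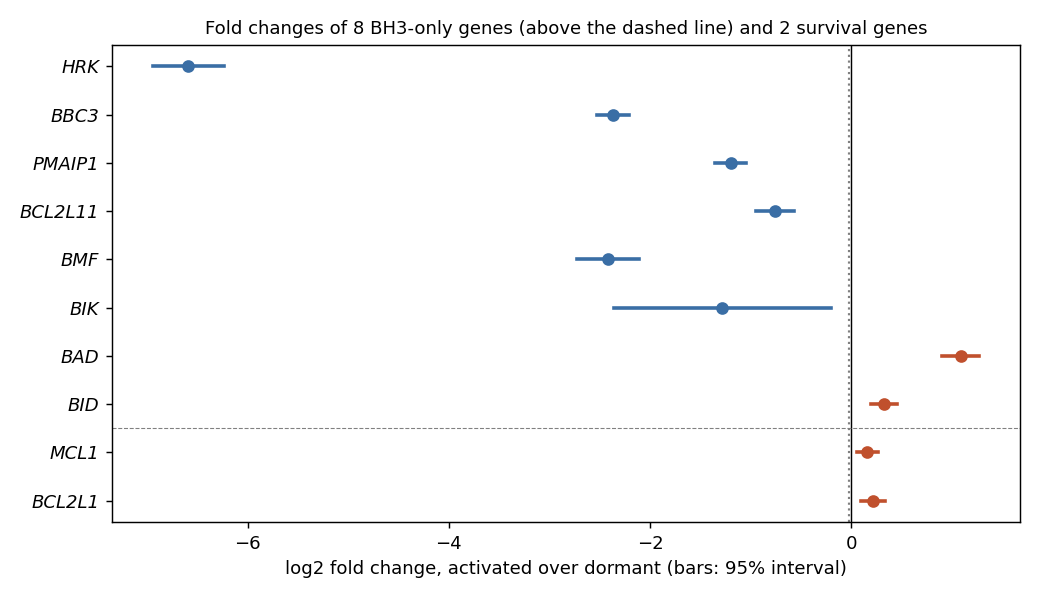
Log2 fold change, activated over dormant, of the 8 BH3-only genes and the 2 survival genes, with 95% intervals as bars and the median of all tested genes as a dotted line. HRK lies at -6.59, the other 5 falling genes between -2.42 and -0.76, and the 4 rising genes between 0.16 and 1.09.

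The RefSeq promoter table of GRCh38.p14, which spans 250 bases before to 50 after each annotated start, held 15 windows for 8 of the 10 genes, without MCL1 and BIK. These windows were searched on both strands for TGACGTCA (the cAMP response element), TGATGNAA (an element bound by ATF4 with C/EBP factors), TGTTTAC (FOXO factors), TGANTCA (AP-1) and TTTNGCGC (E2F), where N is any base. A match was found in 4 windows, printed here because they are the windows with a match, with the matched letters in capitals. None of the matches overlapped another. The HRK window (chr12:116881392-116881691, minus strand) held the ATF4 element starting 75 bases before the start, and 3.62% of the 35116 windows in the table hold it. The BBC3 window (chr19:47232618-47232917, minus strand) held the AP-1 letters, found in 7.71% of all windows. The BCL2L11 window (chr2:111120664-111120963, plus strand) held the FOXO letters on the opposite strand, found in 3.42% of all windows. The first BCL2L1 window (chr20:31723914-31724213, minus strand) held the E2F letters, found in 1.79% of all windows. The cAMP response element, held by 1.85% of all windows, was in none of the 15. A match is a description of letters in the window and no evidence of binding.
HRK: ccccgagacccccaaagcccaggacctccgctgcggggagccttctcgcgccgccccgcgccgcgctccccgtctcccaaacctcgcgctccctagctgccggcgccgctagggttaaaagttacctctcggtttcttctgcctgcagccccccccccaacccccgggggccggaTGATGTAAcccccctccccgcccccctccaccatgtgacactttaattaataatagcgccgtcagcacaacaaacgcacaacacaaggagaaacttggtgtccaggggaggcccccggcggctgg
BBC3: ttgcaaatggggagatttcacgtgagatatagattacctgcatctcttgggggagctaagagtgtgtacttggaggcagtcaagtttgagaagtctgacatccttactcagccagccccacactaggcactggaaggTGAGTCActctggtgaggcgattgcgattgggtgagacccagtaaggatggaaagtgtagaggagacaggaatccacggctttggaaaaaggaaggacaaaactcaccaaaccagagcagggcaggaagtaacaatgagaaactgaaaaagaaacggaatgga
BCL2L11: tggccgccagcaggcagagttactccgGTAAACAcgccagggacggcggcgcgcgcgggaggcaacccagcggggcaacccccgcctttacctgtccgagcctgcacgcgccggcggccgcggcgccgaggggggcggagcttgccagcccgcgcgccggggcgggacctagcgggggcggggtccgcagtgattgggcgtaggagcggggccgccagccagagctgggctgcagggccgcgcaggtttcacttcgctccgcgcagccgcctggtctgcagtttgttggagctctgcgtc
BCL2L1: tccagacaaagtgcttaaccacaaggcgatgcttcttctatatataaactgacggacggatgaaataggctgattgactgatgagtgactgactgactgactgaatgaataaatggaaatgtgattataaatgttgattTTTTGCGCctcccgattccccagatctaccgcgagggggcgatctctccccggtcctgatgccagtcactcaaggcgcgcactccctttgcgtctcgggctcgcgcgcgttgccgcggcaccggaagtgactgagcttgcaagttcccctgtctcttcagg

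HRK (harakiri, chromosome 12, 116856144 to 116881441, minus strand, RefSeq GRCh38.p14, as for the genes that follow), a BH3-only protein that binds BCL-XL, showed the largest change of the 10. Its counts were 9, 8 and 13 in activated libraries and 1024, 1143 and 1050 in dormant libraries. On the CPM scale it lay at 0.263, 0.230 and 0.396 in activated cells, against 27.4, 29.4 and 29.4 in dormant cells. The gene was thus close to undetected in each activated library and well expressed in each dormant one. The log2 fold change was -6.59 ± 0.16 (SE, n = 3 each), and the adjusted p from edgeR was 1.04e-13. Only 16 of the tested genes had a larger fitted fall, since HRK ranked 17 of 13336. The ratio of summed counts scaled to library size with TMM factors, dormant over activated, was 97.3. Its exact binomial 95% interval was 68.1 to 145 and covers counting error only. On the log2(FPKM + 1) scale, where the added 1 exceeds its level in activated cells, the log2 fold change was -2.51.

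BBC3 (chromosome 19, 47220824 to 47232860, minus strand), which encodes PUMA, a killer that binds every main survival protein, fell 5.16-fold. Its levels were 11.3, 11.6 and 10.1 CPM in activated libraries and 56.3, 54.7 and 59.0 CPM in dormant libraries. The groups lay far apart beside the scatter within each. The log2 fold change was -2.37 ± 0.08 (SE), with an adjusted p of 1.27e-12 in edgeR.

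BMF (chromosome 15, 40087890 to 40108879, minus strand), a BH3-only protein known to be held at dynein motors until released, fell 5.35-fold. It measured 2.60, 3.40 and 3.66 CPM in activated libraries, against 15.4, 18.6 and 17.6 CPM in dormant libraries. On the log2 scale the change was -2.42 ± 0.14 (SE), with an adjusted p of 1.13e-09 in edgeR. Its exons overlap the antisense gene BMF-AS1 over 8.46% of their length in GENCODE 29, and the labels do not say whether counting used strand.

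PMAIP1 (chromosome 18, 59899996 to 59904305, plus strand), which encodes NOXA, a partner chiefly of MCL1, fell 2.29-fold. The libraries held 14.5, 14.3 and 14.3 CPM in activated cells and 32.9, 32.9 and 32.9 CPM in dormant cells. The SD was 0.102 CPM among activated and 0.0217 CPM among dormant libraries. Both SDs lie below the counting error at this depth, so they understate the spread. Its log2 fold change was -1.20 ± 0.07 (SE), with an adjusted p of 1.34e-09 in edgeR.

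BCL2L11 (chromosome 2, 111120914 to 111168445, plus strand), which encodes BIM, a killer that can bind all survival proteins and activate BAX directly, showed the smallest fall of the 6. It lay at 12.9, 13.1 and 13.7 CPM in activated libraries and at 20.9, 23.3 and 22.8 CPM in dormant libraries. The groups did not overlap. The log2 fold change was -0.76 ± 0.09 (SE), with an adjusted p of 1.78e-06 in edgeR. Exons of the long non-coding gene MIR4435-2HG on the opposite strand overlap 10.9% of its exonic length.

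BIK (chromosome 22, 43110750 to 43129712, plus strand), a BH3-only protein of the endoplasmic reticulum, was scarce in both groups, and its call did not hold on leaving out single libraries. Its counts were 24, 10 and 6 in activated libraries and 48, 26 and 33 in dormant libraries. Activated replicate 1, at 0.702 CPM, lay above dormant replicate 2, at 0.669 CPM. The log2 fold change was -1.28 ± 0.50 (SE), with an adjusted p of 0.0327 in edgeR. Leaving out 1 library ended the call in 4 of 6 cases, namely activated replicate 2 (adjusted p = 0.0925), activated replicate 3 (0.133), dormant replicate 1 (0.151) and dormant replicate 3 (0.0667). Without activated replicate 1 the log2 fold change was -1.999.

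BAD (chromosome 11, 64269828 to 64284704, minus strand), a BH3-only protein that binds BCL-XL, BCL2 and BCL-w and that growth factor kinases switch off by phosphorylation, went the other way. Its levels were 61.6, 48.4 and 55.5 CPM in activated libraries, against 27.5, 24.0 and 26.3 CPM in dormant libraries. Every activated library was above every dormant one, and the activated libraries were the more scattered, with an SD of 6.62 CPM among activated and 1.80 CPM among dormant libraries. BAD had a log2 fold change of 1.09 ± 0.09 (SE), with an adjusted p of 2.57e-08 in edgeR. Exons of GPR137 on the opposite strand overlap 23.7% of the exonic length of BAD, and GPR137 itself averaged 40.9 CPM in activated and 32.2 CPM in dormant cells (log2 fold change 0.35). The part of that overlap in the rise of BAD was not tested.

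BID (chromosome 22, 17734138 to 17774665, minus strand), the BH3-only protein that caspase-8 cleaves to link death receptors to mitochondria, rose 1.252-fold. It measured 42.1, 42.0 and 42.0 CPM in activated libraries and 33.9, 33.6 and 33.2 CPM in dormant libraries. The step was small, and the groups did not overlap. The SD was 0.0604 CPM among activated and 0.370 CPM among dormant libraries. Both lie below the counting error of counts such as 1441, 1458 and 1379 in activated libraries, so they understate the spread. BID had a log2 fold change of 0.32 ± 0.06 (SE), with an adjusted p of 1.81e-04 in edgeR.

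MCL1 (chromosome 1, 150574558 to 150579610, minus strand), a short-lived survival protein held at its level by constant synthesis, had 450, 492 and 461 CPM in activated libraries and 427, 409 and 420 CPM in dormant libraries. BCL2L1 (chromosome 20, 31664452 to 31723963, minus strand) had 423, 398 and 414 CPM in activated libraries and 374, 327 and 360 CPM in dormant libraries. Activated libraries lay above dormant libraries for both genes, and the gap between groups was narrow beside the levels. The log2 fold change was 0.16 (95% interval 0.05 to 0.27, adjusted p = 0.00903 in edgeR) for MCL1 and 0.22 (95% interval 0.10 to 0.34, adjusted p = 0.00221) for BCL2L1. Both calls depended on the scaling. Scaling by total counts in place of TMM factors shifted the median over all genes by -0.14 on the log2 scale, and gave 0.02 for MCL1 (adjusted p = 0.715) and 0.08 for BCL2L1 (adjusted p = 0.172). BID (0.18) and BAD (0.95) stayed past the threshold with total counts. Counts per gene do not separate the long survival forms of MCL1 and BCL2L1 from their short forms, which are known to promote death. Exons of the antisense gene ABALON overlap 43.0% of the exonic length of BCL2L1, and the symbol ABALON is not in the count table.

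**Figure D3:**
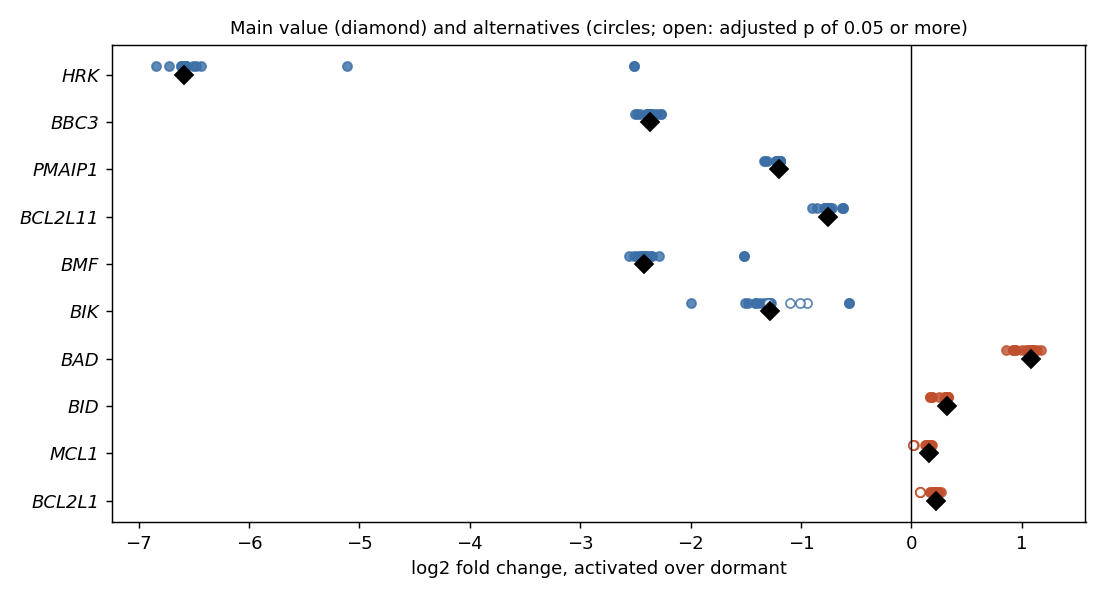
Log2 fold change of the 10 genes with the test as reported (diamonds) and under up to 18 alternative settings (circles, open where the adjusted p was 0.05 or more). No value crossed 0, BIK, MCL1 and BCL2L1 have open circles, and HRK lies at -2.51 on the log2(FPKM + 1) scale.

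Levels of different genes were compared as FPKM, the counts scaled by gene length and library total, as deposited. In activated cells the order was BCL2L1 (133.6 ± 4.13 FPKM, SD, n = 3), MCL1 (113 ± 5.39), BAD (56.4 ± 6.74), BID (15.1 ± 0.0204), PMAIP1 (7.13 ± 0.0490), BBC3 (4.40 ± 0.330), BCL2L11 (1.64 ± 0.0561), BMF (0.618 ± 0.106), BIK (0.391 ± 0.274) and HRK (0.0464 ± 0.0137). Only the neighbours BMF and BIK overlapped in range over the 3 activated libraries. In dormant cells BCL2L1 (126 ± 7.34 FPKM) and MCL1 (111 ± 1.33) again led, followed by BAD (29.2 ± 1.75), BBC3 (25.04 ± 0.867), PMAIP1 (18.01 ± 0.184), BID (13.2 ± 0.168), HRK (4.95 ± 0.241), BMF (3.65 ± 0.378), BCL2L11 (3.05 ± 0.194) and BIK (1.06 ± 0.330). No neighbours overlapped there. The first 3 places were the same in both groups, while HRK stood at place 10 in activated and place 7 in dormant cells and BID at place 4 in activated and place 6 in dormant cells.

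The makeup of the BH3-only genes differed between the groups, while the difference in their sum depended on the scale. Their deposited FPKM, which are scaled by library total, summed to 92.7, 79.0 and 85.5 in activated libraries, against 98.7, 96.4 and 99.6 in dormant libraries. On that scale each activated sum lay below each dormant sum. Divided by the TMM factors the sums were 97.3, 82.8 and 89.8 in activated and 94.9, 90.9 and 95.1 in dormant libraries, and the groups overlapped. In TMM-normalised CPM, which are not corrected for gene length, they were 146, 133 and 139.8 in activated and 216, 217 and 222 in dormant libraries. BAD made up 65.7 ± 2.69% of the FPKM sum in activated cells and 29.7 ± 1.42% in dormant cells (SD, n = 3 each). The 6 falling genes, grouped after their values were seen, summed to 14.6, 14.4 and 13.8 FPKM in activated libraries and 54.6, 55.7 and 56.9 FPKM in dormant libraries. In deposited FPKM MCL1 and BCL2L1 together held 246, 248 and 246 FPKM in activated and 245, 228 and 239.9 FPKM in dormant libraries. The 3 activated sums lie within 3 FPKM of each other and above each dormant sum, though the lowest, 245.6, is close to the highest dormant sum, 244.8. Divided by the TMM factors the survival sums were 258, 260 and 258 in activated and 235, 215 and 229 in dormant libraries. These sums carry no test, and transcript levels do not give protein levels.

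**Figure D4:**
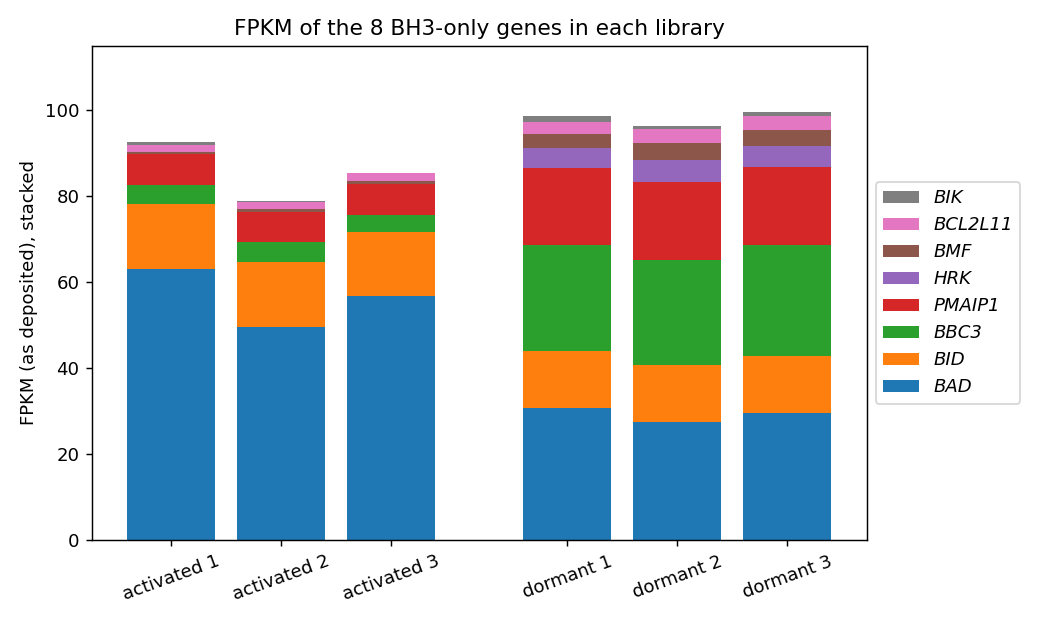
Deposited FPKM of the 8 BH3-only genes, stacked from 0, in the 3 activated and 3 dormant libraries. BAD takes up most of each activated bar, while BBC3 and PMAIP1 are thin there and broad in each dormant bar.

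Ratios of killers to the survival genes they are known to bind were set side by side on the FPKM scale. PMAIP1 per MCL1 was 0.0663, 0.0598 and 0.0638 in activated libraries and 0.159, 0.166 and 0.161 in dormant libraries. BBC3 per MCL1 was 0.0391 ± 0.00280 in activated and 0.225 ± 0.00737 in dormant cells (SD, n = 3 each). HRK per BCL2L1 averaged 3.47e-04 in activated and 0.0394 in dormant cells. BAD per BCL2L1 ran the other way, at 0.422 ± 0.0377 in activated and 0.231 ± 0.000869 in dormant cells. MCL1 per BCL2L1 was 0.846 ± 0.0671 in activated and 0.882 ± 0.0417 in dormant cells, with overlapping ranges.

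The other genes of the pathway were grouped in 11 lists by role, whose counts stand beside 36.5% higher and 37.2% lower among all tested genes and a median log2 fold change of -0.02 over them. Among the 4 other survival genes of the family, 1 rose and 3 fell, with a median of -1.40. BCL2A1, a survival gene known as a target of NF-kB, rose 7.05-fold, with counts of 564, 525 and 475 in activated libraries against 89, 80 and 75 in dormant libraries. BCL2L2, which encodes BCL-w, fell 1.98-fold, and its exons overlap the readthrough gene BCL2L2-PABPN1. BCL2 itself was scarce and fell 3.52-fold, with counts of 42, 46 and 18 in activated and 159, 110 and 140 in dormant libraries. BCL2L10, with counts of 9, 7 and 0 in activated and 23, 57 and 32 in dormant libraries, passed the filter only through the dormant group. In FPKM, BCL2A1 reached 17.5 ± 1.17 in activated and 2.73 ± 0.196 in dormant cells, so MCL1 and BCL2L1 stayed the most abundant survival genes in both groups.

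Of the 3 pore-forming effectors, 1 fell and 2 did not pass the threshold, with a median of -0.02. BAX averaged 134 ± 2.05 CPM in activated and 136 ± 6.31 CPM in dormant cells (log2 fold change -0.02 ± 0.05 SE, adjusted p = 0.785 in edgeR). With total counts its value was -0.16 (adjusted p = 0.0103 in edgeR), and with a gene length correction -0.25 (adjusted p = 2.43e-04 in edgeR). In each FPKM fit BAX was also past the threshold and lower, at -0.15. In these settings 2 of the 3 effectors were lower. BAK1 fell 1.40-fold, to 26.5 ± 0.556 CPM in activated cells, against 37.1 ± 2.80 CPM in dormant cells. BOK, a less studied relative of BAX, averaged 19.8 ± 1.07 CPM in activated and 18.1 ± 2.13 CPM in dormant cells (adjusted p = 0.242).

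Among 10 tested BCL2-related and BNIP genes, 3 rose and 4 fell, with a median of -0.14. BNIP3, a mitochondrial protein induced by hypoxia, rose 2.06-fold and BCL2L12 rose 1.72-fold, although exons of IRF3 on the opposite strand overlap 33.1% of the exonic length of BCL2L12. BNIP2 fell 1.55-fold, and BNIPL fell with 10 activated and 49 dormant counts, a gene that passed the filter only through the dormant group and whose call ended without activated replicate 1 or dormant replicate 2 (adjusted p = 0.0590 and 0.0864).

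Downstream of the mitochondria, 5 of 6 apoptosome and mitochondrial factors rose while CYCS, cytochrome c, missed the threshold at 0.04 on the log2 scale (edgeR adjusted p = 0.524), and the median was 0.40. HTRA2, a protease that counters inhibitors of apoptosis, rose 1.89-fold, although exons of AUP1 and LOXL3 on the opposite strand overlap 16.1% and 20.8% of its exonic length. AIFM1, a flavoprotein that moves to the nucleus in cell death, rose 1.54-fold. With total counts 3 of the 6 were past the threshold and higher. The same count of 3 came from the gene length correction and both filtered FPKM fits. With unfiltered log2(FPKM + 1) it was 2. Of 7 caspases, 3 rose and 2 fell, with a median of 0.13. CASP9, the initiator that the apoptosome activates, rose 1.58-fold and CASP2 rose 1.32-fold, while CASP10, an initiator of the death receptor pathway, fell 1.36-fold. On unfiltered log2(FPKM + 1) only 1 caspase was past the threshold and higher. CASP2 lost its call there (0.23, adjusted p = 0.0693 in limma).

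The inhibitors of apoptosis split, with a median of 0.42. BIRC5, survivin, which also acts in cell division, rose 3.84-fold and BIRC3, an NF-kB target, rose 2.49-fold. XIAP, the direct caspase inhibitor, fell 2.08-fold, to 65.9 ± 6.68 CPM in activated cells, against 137 ± 1.42 CPM in dormant cells. In all, 3 of the 6 rose and 1 fell. Under total counts and in both filtered FPKM fits 3 were lower. With unfiltered log2(FPKM + 1), and without activated replicate 2, the number lower was 2.

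In the death receptor pathway, 7 of 11 tested genes rose and 2 fell, with a median of 0.44. TNFRSF1A, the main TNF receptor, rose 2.63-fold to 642 ± 30.0 CPM in activated cells, against 244 ± 4.31 CPM in dormant cells. TNFSF10, the ligand TRAIL, had counts of 168, 153 and 141 in activated and 4, 16 and 14 in dormant libraries, and only the activated libraries carried it over the minimum count. TNFRSF10B, a TRAIL receptor that carries a death domain, fell 1.41-fold, and TNFRSF10C, a decoy receptor for TRAIL, fell 1.96-fold, with exons of 2 unnamed genes on its own strand over 26.0% and 13.3% of its exonic length.

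Regulators of BH3-only proteins after translation changed in both directions. Of 9 proteins that hold BH3-only proteins, 4 rose and 3 fell, with a median of 0.12. The 14-3-3 genes YWHAQ and YWHAE, whose products hold phosphorylated BAD, rose 1.36-fold and 1.35-fold, and YWHAZ and YWHAH fell 1.19-fold and 1.16-fold. Of 12 kinases known to phosphorylate BAD or BIM, 6 rose and 5 fell, with a median of 0.25. PRKACA, a catalytic subunit of protein kinase A, rose 1.90-fold and AKT1 rose 1.74-fold, while PIM1 and PIM3 fell 2.55-fold and 2.38-fold. Among 9 genes known for MCL1 turnover or transcription, 1 rose and 6 fell, with a median of -0.23. The list mixes ubiquitin ligases with deubiquitinases, which act in opposite directions, and genes of both kinds were among the 6. CDK9, the kinase on which MCL1 transcription is known to depend, rose 1.38-fold, and BTRC and GSK3B, which act in MCL1 degradation, fell 1.74-fold and 1.52-fold. After a correction for gene length 2 of these 9 genes were past the threshold and lower, and without activated replicate 3 or dormant replicate 3 it was 3.

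Of 13 tested transcription factors and cofactors known to control members, 11 fell and 2 rose, beside 37.2% lower and 36.5% higher among all tested genes. The median of the list was -1.11 on the log2 scale, against -0.02 for all tested genes. ATF3 and DDIT3, stress-induced factors downstream of ATF4, fell 83.2-fold and 29.6-fold, and exons of other genes overlap those of DDIT3. FOXO3, which is known to drive BCL2L11 and BBC3 in other settings, was counted in the same list and averaged 19.5 ± 0.365 CPM in activated and 79.5 ± 1.89 CPM in dormant cells. E2F1, which drives replication genes and can induce BH3-only genes, rose 16.0-fold, and STAT3, a known activator of MCL1, rose 1.996-fold. TP73, a transcription factor, had 39 counts in activated and 0 in dormant libraries and was not tested. FOXO3, TP73, TRIB3 and CYCS were named after their values were seen.

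**Figure D5:**
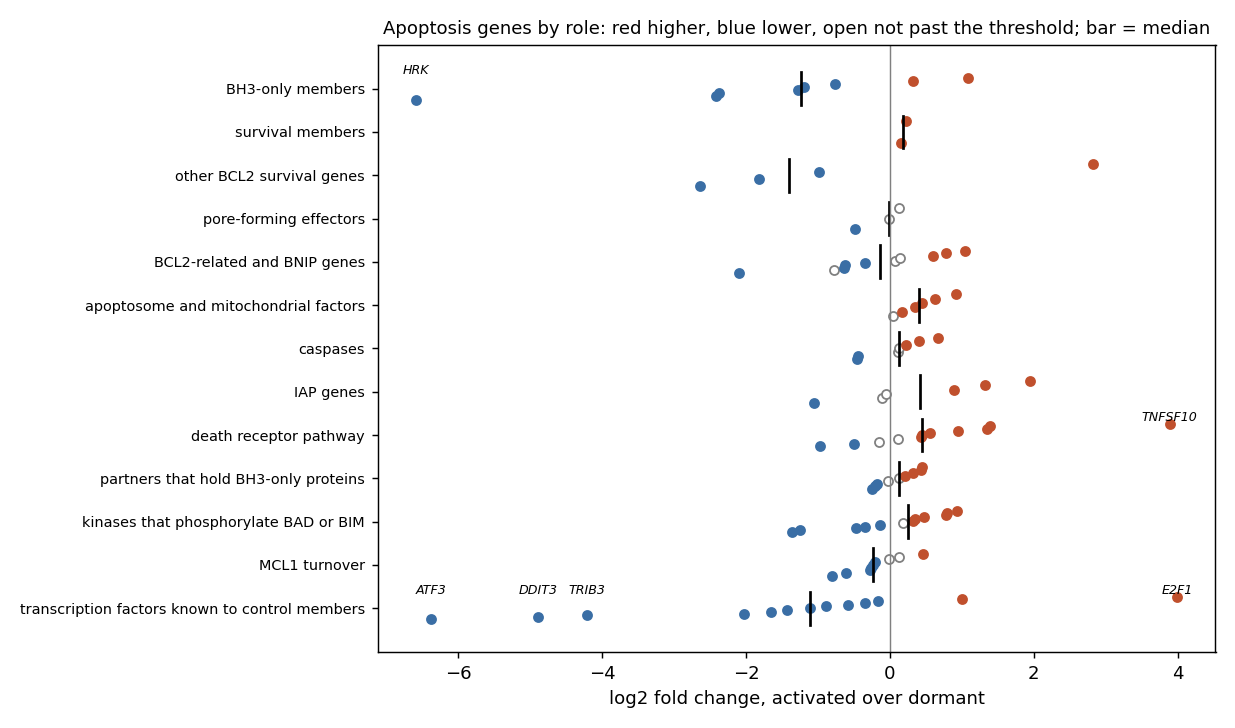
Log2 fold change, activated over dormant, of the 10 genes and of the tested genes of 11 further lists, by role, with red for higher, blue for lower, open circles for genes not past the threshold and black bars for list medians. HRK, ATF3, DDIT3 and TRIB3 lie below -4, and E2F1 and TNFSF10 lie near 4.

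Across the 6 libraries, the genes whose log2(CPM + 0.1) followed HRK most closely were CLDND1, GEM and JMY, with Pearson r of 0.99989, 0.99987 and 0.99974 among 12358 genes of at least 1 CPM on average. The 6 points form 2 groups, so r mainly reflects the difference between groups, and 893 genes had r above 0.99. CLDND1 averaged 37.7 ± 1.23 CPM in activated and 65.9 ± 0.415 CPM in dormant cells, GEM 2.82 ± 0.487 CPM in activated and 40.7 ± 1.06 CPM in dormant cells, and JMY 20.3 ± 1.66 CPM in activated and 100.7 ± 2.58 CPM in dormant cells (SD, n = 3 each).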

How the data were processed

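Per the labels' protocols, TRIzol was used for RNA extraction and a VAHTS Universal V6 kit for library preparation. The tools named in the submitters' processing notes are fastp, HISAT2 and HTSeq, with build GRCh38; no source used here gives their versions, the annotation or the strand setting. The authors deposited raw counts per gene symbol and a table of FPKM, which equals those counts divided by gene length and column total. Differences were tested with edgeR 4.0.16 (R 4.3.3): TMM factors, default filter on low counts (minimum 10), quasi-likelihood F test and Benjamini-Hochberg adjustment over 13336 genes at 0.05. The standard error is the size of the log2 estimate over the root of F. CPM are TMM-normalised. The fit was tested on simulated counts with known changes. Exon overlaps are from GENCODE 29 (GRCh38), and gene coordinates and promoter windows from RefSeq (GRCh38.p14).

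Alternatives were other scalings and filters, DESeq2 1.42.0, limma 3.58.1 on voom values, on log2(FPKM + 1) both unfiltered and for genes averaging 0.5 FPKM or more, and on log2(FPKM + 0.1) with that filter, a fit blocked by replicate number, fits without each library in turn and, added after the data were seen, a gene length correction by loess (span 0.3). Deviations of libraries sharing a replicate number correlated at -0.0152, 0.0190 and -0.00572, which gave no reason to treat them as pairs. Libraries of a group differed beyond sampling noise (chi-square per degree of freedom 4.87 to 22.5), so each library counted once. The members and lists were chosen with earlier results of these data known. Besides the members, the text names from each list the 2 genes past the threshold with the largest change in each direction, every other survival gene and effector, and the 3 genes most like HRK, while exceptions are marked. Some genes that this rule names are not reported here.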

Additional observations from a re-analysis of the deposited data

How the results depend on the processing

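BIK and HRK had few counts in activated cells, with 40 and 30 over 3 libraries. The 9830 changed genes ranged from 9109 to 10009 over the alternatives run and were 9789 with the replicate number as a block (4847 higher, 4942 lower), which changed no member's call. Members past the threshold and higher were 2 in place of 4 with total counts and with all 3 FPKM fits, which share that scaling, as MCL1 and BCL2L1 dropped out. Members lower were 5 or 6 throughout. BIK had no value with at least 1 CPM in 3 libraries, by that filter's construction. Of 179 values of the members under alternatives, 167 kept direction and side of the threshold and 12 lost the call, 4 each for BIK, MCL1 and BCL2L1. BOK, not past the threshold, turned to -0.0077 with total counts, to -0.0038 with log2(FPKM + 1), filtered or not, and to -0.0037 with log2(FPKM + 0.1). BAX, also not past it in the main fit, lay between -0.052 and 0.0109 on leaving out 1 library. It was past the threshold and lower with total counts, the FPKM fits and the gene length correction. Of 396 counts of genes in the further lists, 21 moved by more than 1.5 times. The cause of these shifts was not tested.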
